A study of Rattus norvegicus with 20 samples.

Results

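The genes described here are the cytochrome P450 genes of rat liver that remain once several others are set aside. Those are the main bile acid, cholesterol, fatty acid and inducible drug-metabolizing P450s and some CYP2C genes. A gene was taken when a probe set of the array named it alone and its symbol was Cyp followed by a digit. The 17 symbols set aside were Cyp51, Cyp7a1, Cyp7b1, Cyp8b1, Cyp27a1, Cyp4a1, Cyp4a2, Cyp4a3, Cyp1a1, Cyp1a2, Cyp1b1, Cyp3a23-3a1, Cyp3a9, Cyp2b1, Cyp2c11, Cyp2c13 and Cyp2c7. No measured value entered the choice of genes. The rule found 43 genes, of which 40 had values, out of 13462 genes with values. Cyp21a1, Cyp2b12 and Cyp2b21 had no value on any array. Where a gene had several probe sets, that of the highest mean over the 20 arrays stands for it, and 6 of the 40 genes had a second probe set with values.

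Messenger RNA was measured in the livers of male Sprague-Dawley rats, an outbred laboratory stock, that arrived at 4 weeks of age, adapted for 5 days on a commercial chow and then ate a test diet for 21 days. The control diet held 200 g per kg of casein, the main milk protein. On the conventional soybean diet casein and the cultivar Fukuyutaka supplied equal parts of the protein. In the 1:1 high-isoflavone diet casein and the isoflavone-rich cultivar Yukipirika did the same, and the 3:1 high-isoflavone diet had 3 parts of casein to 1 of Yukipirika. All rats shared the strain, sex, age and chow, and each array held the liver of a separate rat, 5 rats per diet taken from 7, 7, 7 and 8 rats (the 1:1 diet) because their food intake was average. Isoflavones are plant compounds that bind estrogen receptors. They differed between the soybean diets together with the cultivar, so that isoflavone content and other traits of the cultivar cannot be told apart.

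Cytochrome P450s are heme enzymes that insert oxygen into their substrates with electrons passed on by partner proteins. Those of the liver oxidize drugs, steroids, fatty acids, retinoids and vitamin D, and several rat genes of the CYP2 and CYP3 families are known for levels that differ between males and females. The PXR and CAR receptors, which sense foreign compounds, switch on many drug-metabolizing P450 genes through paired copies of a short motif.

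Values are log2 signals, so that a difference of 1 is a 2-fold difference. Precision is limited by how many arrays there were. A gene is called when its adjusted p in limma, corrected over all 27702 tested probe sets, is under 0.05. Of the 40 genes, 35 lay above the dimmest 25% of probe sets (a mean of 1.84), and Cyp11a1, Cyp26a1, Cyp27b1, Cyp2j10 and Cyp4f17 lay within it. Signals of the hepatocyte markers summed to between 5049 and 6431 on every array (linear scale, 7 of 8 markers measured), against 9.44 to 16.7 for 3 of 4 bile duct markers and 67.4 to 145.7 for 5 of 7 Kupffer cell markers. The medians of whole arrays ran from 2.43 to 2.49 on casein and from 2.51 to 2.56 on conventional soybean, and the median difference over all probe sets was 0.06. They ran from 2.43 to 2.52 on the 3:1 and from 2.45 to 2.57 on the 1:1 high-isoflavone diet. The lowest signals stopped higher on casein replicate 5 (0.134 log10) and on replicate 1 of the 3:1 diet (0.142) than elsewhere (-0.265 or lower), and these are called the higher-floor arrays. In whole liver, fewer cells that express a gene and less of its RNA per cell cannot be told apart.

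Cyp3a18 and Cyp3a2 lie on opposite strands of chromosome 12 and both belong to the CYP3A family, the main drug- and steroid-oxidizing P450s of liver. Their promoters are shown because Cyp3a18 was the P450 called in both diets with equal parts of soybean. The 250 bases before each start are from RefSeq on the GRCr8 build, at chr12:13994062-13994311 on the plus strand for Cyp3a18 and at chr12:14343858-14344107 on the minus strand for Cyp3a2. Capitals mark matches, on either strand, to a core motif of nuclear receptors written AGGTCA, to its common variant AGTTCA, and to a motif of the HNF4 type written CAAAGTCCA.
Cyp3a18: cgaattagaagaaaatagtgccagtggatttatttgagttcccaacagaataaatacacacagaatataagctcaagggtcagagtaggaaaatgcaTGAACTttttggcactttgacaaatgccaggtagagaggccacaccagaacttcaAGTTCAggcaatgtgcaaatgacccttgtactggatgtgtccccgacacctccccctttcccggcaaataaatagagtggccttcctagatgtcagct
Cyp3a2: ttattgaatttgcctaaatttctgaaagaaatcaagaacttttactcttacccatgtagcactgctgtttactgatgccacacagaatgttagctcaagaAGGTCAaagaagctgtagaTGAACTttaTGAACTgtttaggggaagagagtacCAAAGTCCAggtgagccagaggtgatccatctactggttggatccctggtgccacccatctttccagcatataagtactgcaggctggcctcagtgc
The Cyp3a18 window held 2 matches. Read on the opposite strand the variant appears as TGAACT, from 153 to 148 bases before the start, and on the same strand as AGTTCA, from 98 to 93 bases before it. The Cyp3a2 window held 4 matches. They were the core motif from 150 to 145, the variant on the opposite strand from 131 to 126 and from 122 to 117, and the HNF4-type motif from 97 to 89 bases before the start. The same search found the core motif in 14.1%, the variant in 12.2% and the HNF4-type motif in 0.338% of the 33469 RefSeq windows of this length. Among the 32 P450 genes with a window, 7 held the core motif, 7 held the variant and 1, Cyp3a2, held the HNF4-type motif. The windows of Cyp2d2 and Cyp26b1 held no match to these letters. A match describes the letters and does not show that a factor binds there.

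P450 levels on the conventional soybean diet were first set against those on casein. Cyp26b1 and Cyp3a18 rose and Cyp4f17 fell, 3 of 40 genes (7.5%), against 1.64% of all probe sets called in this comparison. The other 37 genes did not pass, with 25 of the 40 differences above 0 and a median of 0.10, against 0.06 over all probe sets. Differences ran from -1.05 to 1.02, and 9 of the 40 genes had an unadjusted p under 0.05, against 16.8% of all probe sets.

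Cyp26b1 breaks down retinoic acid, the active form of vitamin A. On casein the 5 rats (replicates 1 to 5) had log2 signals of 2.20, 2.98, 2.58, 2.66 and 2.12, and on conventional soybean 3.76, 3.49, 3.63, 2.95 and 3.53. Replicate 4 was the lowest rat on conventional soybean and lay just under the highest casein rat, and the other 4 lay above every casein rat. The gene rose 1.94-fold (0.96 log2, SE 0.216, adjusted p = 0.0274, limma), from 2.51 ± 0.352 to 3.47 ± 0.311 (SD, n = 5 per diet). Its second probe set was also called, at 0.50 (adjusted p = 0.0458). The call of the brighter probe set ended when casein replicate 1, 3 or 5 or conventional soybean replicate 1, 2, 3 or 5 was left out, at adjusted p from 0.0502 to 0.0850. It also ended without the 2 higher-floor arrays (0.0813) and without number 1 of all diets (0.106).

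Cyp3a18 is a CYP3A enzyme that is more abundant in male than in female rat liver and hydroxylates steroids. The casein rats had 4.98, 5.54, 6.15, 5.27 and 4.78, and the rats on conventional soybean 6.45, 6.42, 6.14, 6.62 and 6.17. Casein replicate 3 was high among the casein rats and level with the lowest rat on soybean, so the groups overlapped at that point only. The gene rose 2.03-fold (1.02 log2, SE 0.256, adjusted p = 0.0462), from 5.34 ± 0.535 to 6.36 ± 0.204. Leaving out single arrays ended this call 14 times of 20, at adjusted p from 0.0509 to 0.123. The 14 included casein replicates 1, 2, 4 and 5 and each of the 5 conventional soybean rats, besides replicates 1 and 2 of the 3:1 and 2, 3 and 4 of the 1:1 diet. After centring and scaling of the arrays the difference was 0.91 (adjusted p = 0.0653). The call also ended without limma's trend setting, without the 2 higher-floor arrays and without number 1 of all diets, at up to 0.137.

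Cyp4f17 belongs to the CYP4F family, whose better-known members hydroxylate the ends of fatty acids and eicosanoids. Its log2 signal was dim throughout, at 1.14, 1.67, 1.85, 1.67 and 1.52 on casein and 0.45, 1.08, 0.39, 0.36 and 0.89 on conventional soybean. The 2 groups did not overlap, as for 4.62% of all probe sets. The gene fell by 0.93 on the log2 scale (SE 0.220, adjusted p = 0.0353), from 1.57 ± 0.269 to 0.63 ± 0.331. The call ended without casein replicate 2, 3, 4 or 5 or conventional soybean replicate 1, 3, 4 or 5, at adjusted p from 0.0515 to 0.0817. It also ended without the 2 higher-floor arrays and without number 1 of all diets (0.0600 to 0.0851). The gene was not tested where the dimmest 25% of probe sets were left out.

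Of the genes that were not called, Cyp2d2, Cyp3a2 and Cyp17a1 had the smallest p. Cyp3a2, the main male-predominant CYP3A of adult rat liver, was at 7.41, 7.31, 5.96, 7.24 and 6.64 on casein and at 8.31, 7.47, 8.33, 8.15 and 7.37 on conventional soybean. Only replicate 5 on soybean, at 7.37, reached down into the casein range, below casein replicate 1. The difference was 1.01 (SE 0.314, adjusted p = 0.10), about the size of that of Cyp3a18, with a wider spread between rats. Cyp17a1, which makes precursors of androgens, differed by -1.05 (SE 0.340, adjusted p = 0.115). Its rats on conventional soybean scattered between 1.0 and 3.23, and those on casein between 2.05 and 3.98. Without casein replicate 4 or conventional soybean replicate 2 Cyp17a1 passed, at adjusted p = 0.0494 and 0.0464.

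**Figure D1:**
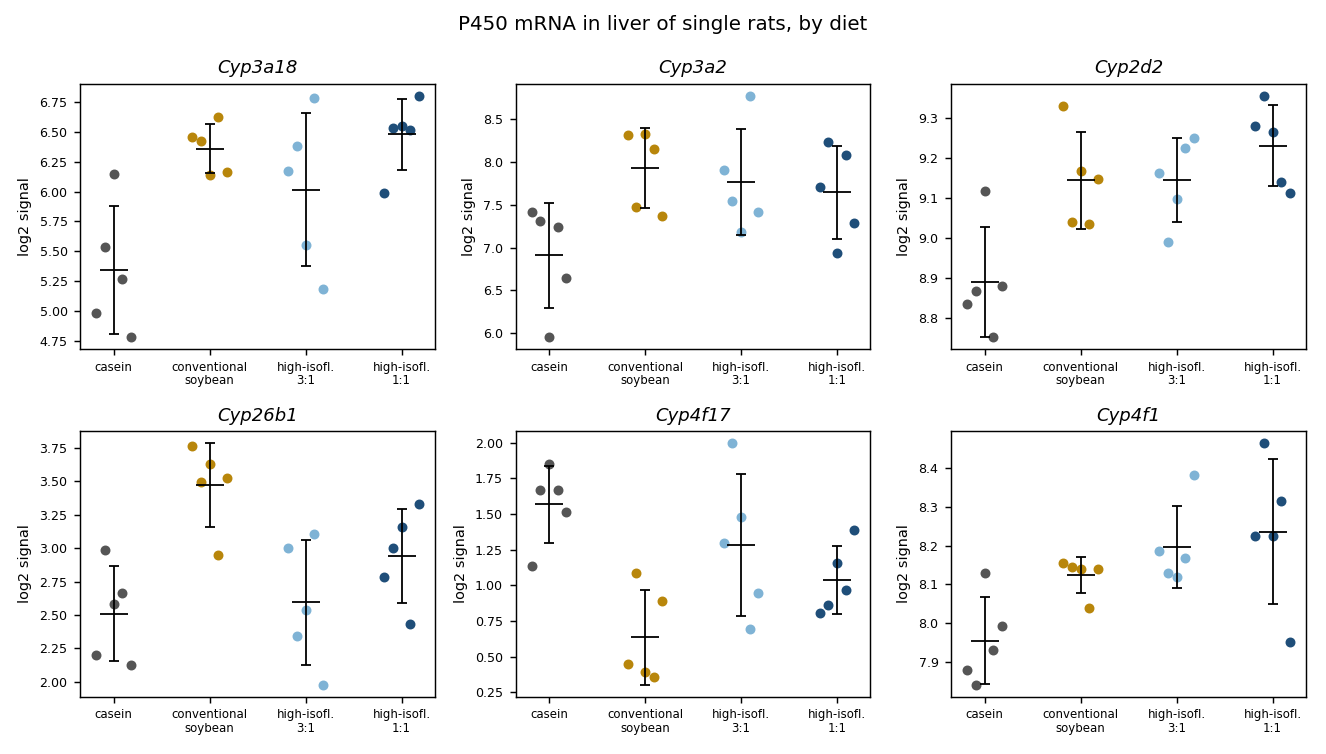
Log2 signal (y axis) of 6 P450 genes in each rat by diet (x axis), with 1 point per rat and bars for the mean ± SD of 5 rats. Rats on conventional soybean sit between 6.14 and 6.62 for Cyp3a18, against 4.78 to 6.15 on casein, and for Cyp4f17 all 5 sit below every casein rat.

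The 1:1 high-isoflavone diet was set against the same casein rats. Cyp2d2 and Cyp3a18 rose and no gene fell, 2 of 40 (5.0%), against 2.21% of all probe sets. Of the 40 differences 27 were above 0, the median was 0.10 against 0.04 over all probe sets, and 13 of the 40 genes had an unadjusted p under 0.05, against 16.8% of all probe sets. Differences ran from -0.64 to 1.14.

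For Cyp3a18 the rats on the 1:1 diet had 5.99, 6.53, 6.55, 6.52 and 6.81. Only replicate 1 lay within the casein range, below casein replicate 3 at 6.15. The gene rose 2.20-fold (1.14 log2, SE 0.256, adjusted p = 0.0208), to 6.48 ± 0.298. The call ended without casein replicate 1, 4 or 5 or replicate 2 or 4 of the 1:1 diet, at adjusted p from 0.0502 to 0.0670. It also ended without the 2 higher-floor arrays (0.0745) and without number 1 of all diets (0.0563). Cyp3a2 differed by 0.73 (adjusted p = 0.233), with rats at 7.71, 8.23, 6.93, 8.08 and 7.28, of which replicates 3 and 5 lay within the casein range.

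Cyp2d2 is a CYP2D enzyme of liver that oxidizes many basic drugs. Its casein rats had 8.83, 8.87, 9.12, 8.75 and 8.88, and the rats on the 1:1 diet 9.28, 9.36, 9.27, 9.14 and 9.11. Replicate 5 of the 1:1 diet fell just short of casein replicate 3, and the other 4 lay above all casein rats. The gene rose 1.27-fold (0.34 log2, SE 0.0769, adjusted p = 0.0212), from 8.89 ± 0.136 to 9.23 ± 0.101. After centring and scaling of the arrays the difference was 0.14 (adjusted p = 0.570), while after quantile normalization it passed, at 0.30 (adjusted p = 0.0369). The call also ended without casein replicate 4 (0.0651) or 5 (0.0507) or replicate 2 of the 1:1 diet (0.0716). Running limma without its trend setting, or leaving out the 2 higher-floor arrays or number 1 of all diets, ended it too. On conventional soybean Cyp2d2 differed from casein by 0.25 (adjusted p = 0.0928).

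Cyp4f1, Cyp2j4 and Cyp4a8 had the smallest p among the genes not called on the 1:1 diet, and all 3 act on fatty acids or eicosanoids. Cyp4f1, which hydroxylates arachidonic acid products, was at 7.88, 7.84, 8.13, 7.93 and 7.99 on casein and at 8.22, 8.46, 8.23, 8.32 and 7.95 on the 1:1 diet, a difference of 0.28 (SE 0.0821, adjusted p = 0.0759). Replicate 5 of the 1:1 diet was low, within the casein range, and without it Cyp4f1 passed (adjusted p = 0.0154). Cyp4a8, a fatty acid hydroxylase, differed by 1.01 (SE 0.345, adjusted p = 0.128), from 3.67 ± 0.786 to 4.69 ± 0.417. Casein replicate 3 of Cyp4a8, at 4.95, stood above the other casein rats, which ran from 2.81 to 3.67, and without it the gene passed at 1.33 (adjusted p = 0.0284). The second probe set of Cyp4a8 differed by 0.46. Cyp2j4, an arachidonic acid epoxygenase, differed by 0.64 (SE 0.207, adjusted p = 0.107). Its casein rats ran from 3.04 to 3.97 and those on the 1:1 diet from 3.63 to 4.44.

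**Figure D2:**
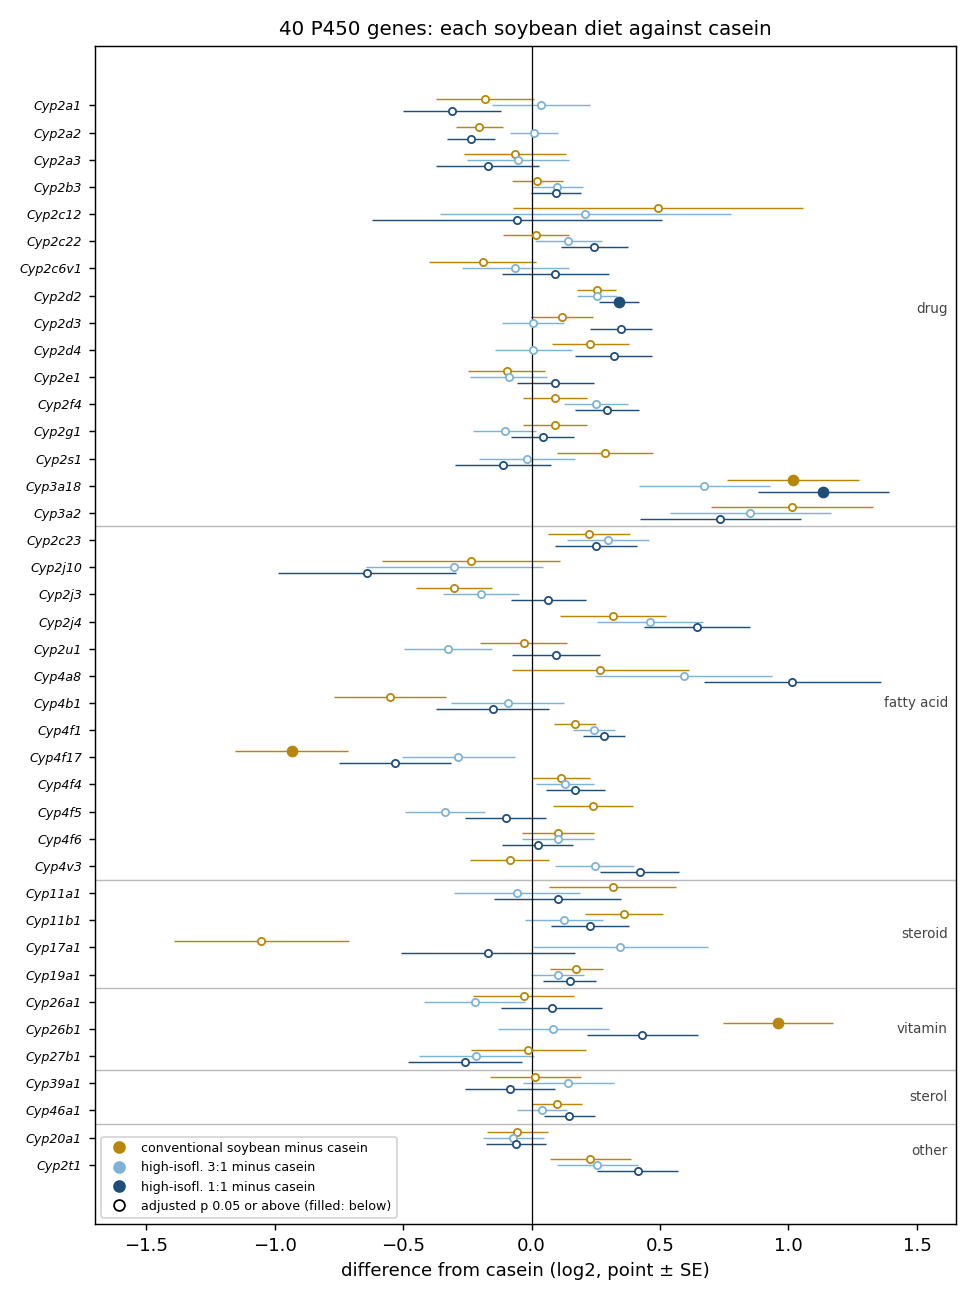
Difference from casein (x axis, log2, point ± SE) of the 40 P450 genes (y axis) on each soybean diet, ordered by role. Filled points have an adjusted p under 0.05: Cyp26b1, Cyp3a18 and Cyp4f17 on conventional soybean and Cyp2d2 and Cyp3a18 on the 1:1 high-isoflavone diet.

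On the 3:1 high-isoflavone diet, with the smaller share of soybean, 0 of the 40 P450 genes passed against casein, with 6 at an unadjusted p under 0.05. Over all probe sets 0.0397% were called and 8.12% had an unadjusted p under 0.05. The median difference of the P450 genes was 0.06 and their range -0.34 to 0.85. Cyp3a18 was at 6.17, 6.38, 5.55, 6.79 and 5.19, with replicates 3 and 5 among the casein values and the other 3 above them all. Its difference was 0.67 (SE 0.256, adjusted p = 0.489). Cyp3a2 was at 7.90, 7.55, 7.18, 8.77 and 7.42, a difference of 0.85 (adjusted p = 0.463) in which replicate 3 alone lay within the casein range. Cyp2d2 differed by 0.26 (adjusted p = 0.294) and Cyp4f1 by 0.24 (adjusted p = 0.403).

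The 1:1 high-isoflavone and the conventional soybean diets held equal shares of soybean protein and were compared for the cultivar. Again 0 of the 40 genes passed, 7 having an unadjusted p under 0.05, against 0.0758% of all probe sets called and 7.07% at an unadjusted p under 0.05. Cyp3a18 differed by 0.12 (SE 0.256, adjusted p = 0.962) and Cyp2d2 by 0.09 (SE 0.0769, adjusted p = 0.878). Cyp26b1, called against casein on conventional soybean, was at 2.78, 3.0, 3.16, 2.43 and 3.33 on the 1:1 diet, where it differed from casein by 0.43 (adjusted p = 0.325). The difference between the cultivars for Cyp26b1 was -0.53 (SE 0.216, adjusted p = 0.632), so that a difference in its response was not shown. For Cyp4f17 it was 0.40 (SE 0.220, adjusted p = 0.743).

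Cyp4v3, Cyp17a1 and Cyp2j3 had the smallest p between the cultivars. Cyp4v3, a fatty acid hydroxylase, was at 6.08, 6.06, 6.28, 6.34 and 6.12 on the 1:1 diet and at 5.80, 6.0, 4.97, 5.84 and 5.73 on conventional soybean. All 5 rats on the 1:1 diet lay above all 5 on conventional soybean, as in 1.40% of probe sets in either direction, and also above all 5 on casein (5.37 to 5.94), as in 4.45%. The difference was 0.51 (SE 0.154, adjusted p = 0.403), and conventional soybean replicate 3 stood low. A second, dimmer probe set of Cyp4v3 differed by 0.75 between the cultivars (adjusted p = 0.717), and its groups overlapped in both comparisons. It ran from 2.29 to 2.83 on the 1:1 diet, 0.26 to 2.51 on conventional soybean and 0.53 to 2.80 on casein. Cyp17a1 differed by 0.88 (adjusted p = 0.595), with 2.87 to 3.15 on the 1:1 diet, a far narrower range than the 1.0 to 3.23 on conventional soybean. Cyp2j3, another epoxygenase, differed by 0.37 (SE 0.147, adjusted p = 0.618). On the 3:1 diet Cyp2j3, at 4.64 to 5.02, lay below every casein rat (5.04 to 5.23), a separation seen for 1.81% of probe sets, but the difference was -0.20 (adjusted p = 0.801). The second probe set of Cyp2j3 overlapped there, at 2.35 to 3.25 against 2.95 to 3.15 on casein. On conventional soybean that second probe set lay below every casein rat, as for 4.62% of probe sets in either direction, and differed by -0.68 (adjusted p = 0.0960).

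Between the larger and the smaller share of the high-isoflavone soybean limma called 0 of the 40 genes and 0% of all probe sets. At an unadjusted p under 0.05 there were 4 of the 40 genes and 2000 probe sets, 7.22%. Cyp2d3, a further CYP2D enzyme, differed by 0.34 (SE 0.120, adjusted p = 0.600). Its rats on the 1:1 diet ran from 8.31 to 8.80 and those on the 3:1 diet from 7.70 to 8.33. Cyp2u1, which acts on long fatty acids, differed by 0.42 (SE 0.170, adjusted p = 0.633), and Cyp2a2, a male-predominant testosterone hydroxylase, by -0.24 (SE 0.0927, adjusted p = 0.604). Cyp17a1 differed by -0.51 (adjusted p = 0.779), and its 1:1 rats (2.87 to 3.15) lay below all 3:1 rats (3.16 to 3.81), as happened in either direction for 1.14% of probe sets.

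The genes were then read by role, with roles assigned when results of these data were known, and with the same casein rats behind each difference. Among 16 measured P450s of drug and foreign compound metabolism, 1 rose on conventional soybean and 2 on the 1:1 diet, where 1.64% and 2.21% of all probe sets were called, with median differences of 0.09 in both. The 3:1 diet gave a median of 0.02 with none called, against 0.0397% of all probe sets. Cyp2e1, which oxidizes ethanol, differed by -0.10 on conventional soybean (adjusted p = 0.778), 0.09 on the 1:1 diet (0.817) and -0.09 on the 3:1 diet (0.937). Of the 3 male-predominant genes measured, Cyp3a18 was called, Cyp3a2 was above 0 in all 3 soybean diets without passing, and Cyp2a2 was not called in any. Cyp2a2 differed by -0.20 on conventional soybean (adjusted p = 0.268), -0.24 on the 1:1 diet (0.192) and 0.01 on the 3:1 diet (0.994). Its casein rats ran from 7.58 to 7.78 and those on conventional soybean from 7.34 to 7.66. Neither of the 2 female-predominant genes, Cyp2c12 and Cyp2a1, was called in any comparison.

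Among 13 measured P450s of fatty acids and eicosanoids 1 fell on conventional soybean (Cyp4f17), where 1.64% of all probe sets were called, and none passed on the other diets (2.21% on the 1:1 and 0.0397% on the 3:1 diet), with a median of 0.10 on each of the 3 soybean diets. None of the 4 measured genes of steroid hormone synthesis passed on any diet, with a median of 0.25 on conventional soybean, while the 1:1 diet had 0.13 and the 3:1 diet 0.11. Of the 3 measured genes of vitamin D and retinoid breakdown or activation, Cyp26b1 alone passed, on conventional soybean (1.64% of all probe sets). The sterol hydroxylases Cyp39a1 and Cyp46a1 and the little-studied Cyp20a1 and Cyp2t1 did not pass in any of the 5 comparisons. Over the family the counts of calls were small in each role, and no share of a role was compared with another.

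P450s depend on proteins that supply electrons and heme, and these were read beside them. Of 9 measured electron partners (12 listed), Cyb5a and Pgrmc1 rose and Cyb5r3 and Pgrmc2 fell on conventional soybean, while on the 1:1 diet Cyb5r3 alone fell and on the 3:1 diet none passed. These are 4, 1 and 0 of the 9, against 1.64%, 2.21% and 0.0397% of all probe sets, and the 9 genes were listed with earlier results known. Cyb5r3, the reductase of cytochrome b5, was at 6.42, 6.93, 7.12, 7.18 and 7.11 on casein and 5.77, 6.2, 6.19, 5.97 and 5.82 on the 1:1 diet. The groups did not overlap, as for 4.45% of all probe sets in either direction. The gene fell by 0.96 on the log2 scale (SE 0.141, adjusted p = 0.000758), a call that held in all 29 alternative settings. On conventional soybean it was at 6.54, 6.32, 5.95, 6.40 and 6.44 and fell by 0.62 (adjusted p = 0.0294), and replicates 1 and 5 there lay above casein replicate 1. That second call ended without casein replicate 2, 3, 4 or 5 or conventional soybean replicate 2, 3 or 5, at adjusted p from 0.0515 to 0.0845. It also ended without the 2 higher-floor arrays and with only the compared arrays (0.0614 to 0.0838). On the 3:1 diet Cyb5r3 differed by -0.51 (adjusted p = 0.233).

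Cyb5a, cytochrome b5 itself, rose by 0.38 on conventional soybean (SE 0.0959, adjusted p = 0.0492), with rats at 8.17 to 8.61 against 7.78 to 8.16 on casein. Its call was lost without any 1 of 16 arrays, all but casein replicate 4 and replicates 1, 4 and 5 of the 3:1 diet, at up to 0.111, and after centring and scaling (0.21, adjusted p = 0.505). Quantile normalization and limma without its trend setting ended it too. So did using only the compared arrays, or leaving out the 2 higher-floor arrays or number 1 of all diets. Pgrmc1, a heme-binding membrane protein that partners P450s, rose by 0.50 (SE 0.121, adjusted p = 0.0400). For it all 5 rats on conventional soybean lay above the casein rats, a separation seen in either direction for 4.62% of all probe sets. Without casein replicate 2, 3 or 5 or any 1 of the conventional soybean rats Pgrmc1 did not pass, at 0.0541 to 0.110, nor after centring and scaling (0.238). Nor did it pass without limma's trend setting, with only the compared arrays or without the 2 higher-floor arrays. Its relative Pgrmc2 fell by 0.41 (SE 0.102, adjusted p = 0.0476), from 5.80 to 6.06 on casein to 5.06 to 5.77. A further probe set of Pgrmc2 fell by 0.53 (adjusted p = 0.0153). The call of the first one held in only 2 of the 20 omissions, those of conventional soybean replicate 2 and of replicate 5 of the 1:1 diet, and rose to 0.120 in the others. Limma without its trend setting or with only the compared arrays ended it too. So did leaving out the 2 higher-floor arrays or number 1 of all diets. Por, the reductase that feeds most liver P450s, differed by -0.44 on conventional soybean (SE 0.165, adjusted p = 0.178), while its other probe set differed by -0.03. For Fdx1, the electron carrier of mitochondrial P450s, the brightest probe set was not called and another was, at 0.71 (adjusted p = 0.0350).

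**Figure D3:**
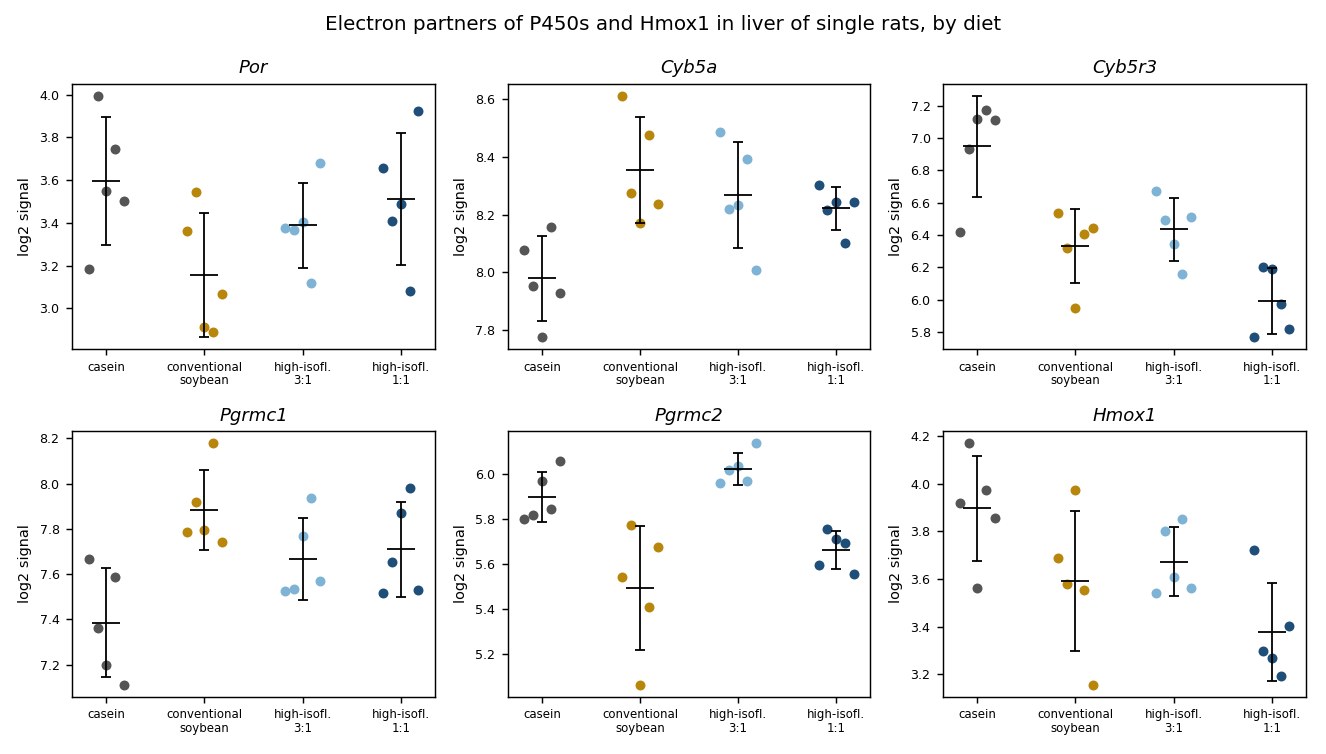
Log2 signal (y axis) of 5 electron partners and of Hmox1 in each rat by diet (x axis), with 1 point per rat and bars for the mean ± SD of 5 rats. For Cyb5r3 the rats on the 1:1 high-isoflavone diet, at 5.77 to 6.2, all sit below the casein rats. Groups did not overlap for 4.45% of all probe sets in that comparison.

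Of 11 measured genes of heme synthesis and breakdown (12 listed), none passed on conventional soybean or the 3:1 diet, and Hmox1, the heme oxygenase induced by stress, fell on the 1:1 diet, where 2.21% of all probe sets were called. It was at 3.92, 4.17, 3.56, 3.97 and 3.86 on casein and 3.72, 3.30, 3.27, 3.19 and 3.4 on the 1:1 diet, with replicate 1 of the latter above casein replicate 3. The difference was -0.52 (SE 0.137, adjusted p = 0.0492). The call held when casein replicate 3, conventional soybean replicate 3 or 5 or replicate 1 of the 1:1 diet was left out and ended in the other 16 omissions, at up to 0.126. It ended too without limma's trend setting, with only the compared arrays, with the mean of all probe sets and with the replicate block. Leaving out the 2 higher-floor arrays or number 1 of all diets ended it as well. Of 16 measured regulators of P450 genes (18 listed), Nr1i3, which encodes CAR, rose on the 1:1 diet (2.21% of all probe sets called), and by the brightest probe set no other passed in the comparisons with casein. Its casein rats ran from 0.99 to 2.11 and those on the 1:1 diet from 2.59 to 3.03. These ranges did not overlap, as for 4.45% of all probe sets in either direction. The difference was 1.20 (SE 0.282, adjusted p = 0.0250). That call ended without casein replicate 1, 3 or 4 or replicate 1 or 2 of the 1:1 diet, at 0.0524 to 0.0735, and without number 1 of all diets (0.109). On conventional soybean Nr1i3 differed from casein by 1.01 without passing (adjusted p = 0.0702), and on the 3:1 diet by 0.17 (0.936). Between the cultivars it differed by 0.19 (adjusted p = 0.933), so that a rise particular to the 1:1 diet was not shown. The signal was dim, and its casein mean lay under the cut of 1.84 for the dimmest 25% of probe sets. Its mean over the 20 arrays lay above that cut. Of Hnf4a, a factor of hepatocyte genes, the brightest probe set did not pass, while its other 2 were called higher on the 1:1 diet, at 0.93 (adjusted p = 0.0347) and 0.47 (0.0367).

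Beside these changes, none of the 7 measured hepatocyte markers passed on any diet. With 1.64% (conventional soybean), 2.21% (1:1) and 0.0397% (3:1) of all probe sets called, 0 calls in short lists do not show unchanged levels. At an unadjusted p under 0.05 were 2, 2 and 1 of the 7, against 16.8%, 16.8% and 8.12% of all probe sets. On conventional soybean 4 of the 7 were above 0, and Apoa1 was lowest (-0.49, adjusted p = 0.0889). All 5 rats there lay below every casein rat for Apoa1, as for 4.62% of probe sets in either direction. The pericentral zone, where many P450s are most abundant, had 0 of 6 measured markers called, and summed to 109.2 to 174.2 on casein, 91.5 to 231.5 on conventional soybean, 87.6 to 126.6 with the 3:1 and 105.5 to 129.8 with the 1:1 diet. Of the 7 periportal markers Hal alone passed, rising by 0.67 on the 1:1 diet (adjusted p = 0.00978), where 2.21% of all probe sets were called. On that diet 3 of the 7 lay below 0, with a lowest difference of -0.40 and a median of 0.02. The periportal sums ran from 1002 to 1483 over all arrays. Epcam, a bile duct marker, fell by 0.71 on conventional soybean (adjusted p = 0.0257) and by 0.95 on the 1:1 diet (0.00251). The highest difference among the 3 measured bile duct markers was 1.01 on conventional soybean and 0.88 on the 1:1 diet, without passing. On the 3:1 diet, with none called, the differences ran from -0.63 to 1.01. The bile duct list summed to 9.44 to 14.9 on the 1:1 diet and 11.1 to 16.7 on casein. All 5 Kupffer cell markers measured were below 0 on the 1:1 and the 3:1 diet and 4 of 5 on conventional soybean, none passing. Their sums were 91.2 to 145.7 on casein (median 105.1) and 67.4 to 92.4 on the 1:1 diet (81.5). On conventional soybean they were 79.3 to 140.0 (83.0), and on the 3:1 diet 93.7 to 110.6 (101.5). The part of cell makeup in the P450 differences was not tested. As a measure of RNA integrity, the 3′ to 5′ ratio of beta-actin (log2) spanned 1.29 to 1.53 in casein rats and 1.32 to 1.83 in rats on conventional soybean. On the 3:1 diet it spanned 1.35 to 2.13, and on the 1:1 diet 1.07 to 2.10.

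The P450 genes also differed in how much rats on a single diet varied. The median SD within diets, pooled over the 4 diets, was 0.272 for the 40 genes and 0.238 over all probe sets. Cyp2c12, known as the female-specific steroid hydroxylase of rat liver, varied most, with a pooled SD of 1.02 that exceeded that of 99.8% of probe sets. Its log2 signals were 5.92, 4.33, 4.99, 5.64 and 5.80 on casein and 6.42, 5.04, 4.14, 6.81 and 6.73 on conventional soybean. They were 6.22, 4.64, 4.37, 6.81 and 5.70 on the 3:1 and 6.09, 3.83, 6.18, 6.01 and 4.28 on the 1:1 diet. Rats on the same diet lay far apart in all 4 diets, least so on casein (4.33 to 5.92), and Cyp2c12 differed from casein by 0.49 on conventional soybean (adjusted p = 0.691), -0.06 on the 1:1 (0.974) and 0.21 on the 3:1 diet (0.961). Cyp4a8 (0.618), Cyp17a1 (0.608), Cyp2j10 (0.594), Cyp3a2 (0.564) and Cyp3a18 (0.456) followed. Cyp2d2 (0.116) and Cyp4f1 (0.124) varied least. On the 1:1 diet a difference of 0.34 was called for Cyp2d2 and that of 0.73 for Cyp3a2 was not.

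Relations between P450 genes over the 20 rats were measured after the mean of each diet was subtracted, for all 780 pairs, with a permutation test that shuffled rats within diets. None of the 780 passed after Benjamini-Hochberg adjustment, and 55 (7.05%) had an unadjusted p under 0.05. The smallest p was that of Cyp2b3 with Cyp4f6, with r of 0.75 (permutation p = 0.0003, adjusted 0.125), rho of 0.78 (permutation p = 0.00054, adjusted 0.172) and a positive r in each diet, from 0.56 to 0.94. Without the 2 rats farthest from the median of either gene r was 0.74 or 0.73. The strongest negative relation was between Cyp2c12 and Cyp2c6v1, another CYP2C gene, with Pearson's r of -0.75 (permutation p = 0.00032, adjusted 0.125) and Spearman's rho of -0.77 (permutation p = 0.0002, adjusted 0.156). Without the 2 rats farthest from the median of Cyp2c12 or of Cyp2c6v1, r was -0.67 or -0.68. All 4 diets had a negative r of their own, from -0.70 to -0.86 over 5 rats each. Both pairs were picked from the 780 with these same rats. Their values by diet and without 2 rats therefore describe the pairs and are no further test of them. Probe sets of close relatives in the CYP2C, CYP3A and CYP2D families can bind each other's RNA, and how far that enters these values was not tested.

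**Figure D4:**
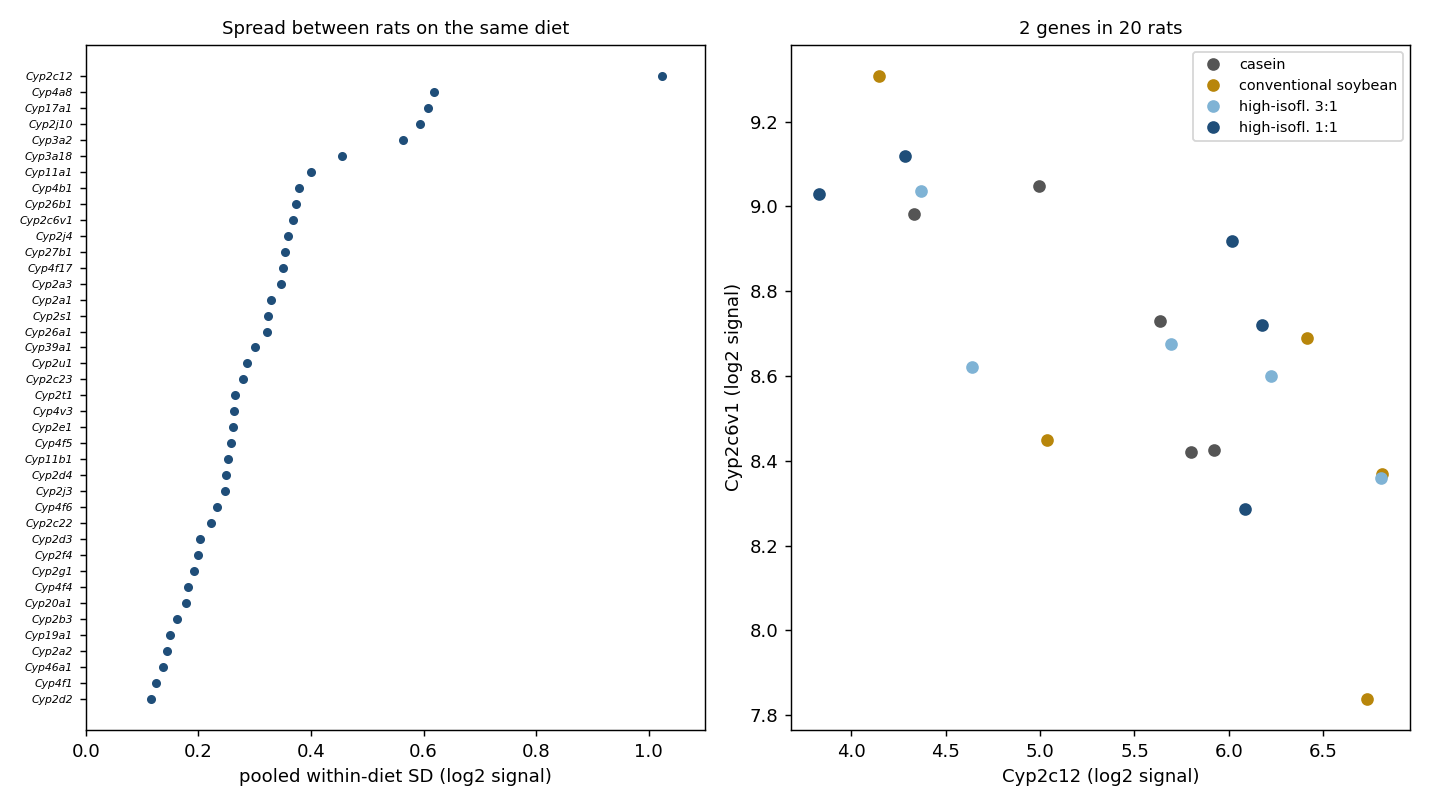
Left, the pooled SD between rats on the same diet (x axis, log2 signal) for each P450 gene (y axis). Right, log2 signals of Cyp2c12 (x axis) and Cyp2c6v1 (y axis) with 1 point per rat coloured by diet. Cyp2c12 spans 3.83 to 6.81 over the 20 rats, and the points of each diet slope downwards. The pair was picked as the strongest negative relation in these same rats and did not pass adjustment.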

How the data were processed

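The authors deposited 1 table for all 20 arrays, normalized with the SuperNORM data service per the labels; neither its version nor how probes were summarized is given in the sources used here. The deposited values are read as log10 signals, the base being inferred from spike-in controls (slope 0.997 ± 0.0242 log10 per log10 of amount, SD over 20 arrays), and multiplied by 3.32193 to give log2. Titles gave each array's diet and were matched to the diet descriptions by wording. Of 31099 probe sets, 57 controls and 3342 without values (2 being both) were left out, leaving 27702. The platform annotation gave 19147 of them 1 symbol, 404 several and 8151 none; 7 P450 probe sets with several symbols were not used. Promoters were matched by gene ID to RefSeq.

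limma 3.58.1 in R 4.3.3 fitted 1 mean per diet over all 20 arrays (lmFit, eBayes with trend, two-sided, Benjamini-Hochberg adjustment per comparison). Adjusted p-values and SEs come from it where no alternative is named. The method was tested on simulated data. Named genes were those called in at least 1 comparison, the 3 uncalled genes of smallest p in each comparison and the gene of largest within-diet SD. Genes, lists and tests were chosen with earlier results of these data known. Alternatives were quantile normalization, centring and scaling, no trend, only the compared arrays, no dimmest 25%, the mean of all probe sets, a replicate block, leaving out the 2 higher-floor arrays or number 1 of all diets, and leaving out each array in turn.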

Additional observations from a re-analysis of the deposited data

Results flagged for a closer look

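Among 80 sets of 5 rats (20 genes in 4 diets), 4 held a rat far from the other 4, and chance gives about 1 in 20 such sets. Cyp2d3 was at 7.70 in replicate 1 of the 3:1 high-isoflavone diet, a higher-floor array, against 8.21 to 8.33 in the others. Cyp4f1 was at 8.04 in conventional soybean replicate 4, against 8.14 to 8.16, and at 8.38 in replicate 5 of the 3:1 diet, against 8.12 to 8.19. Cyp4v3 was at 4.97 in conventional soybean replicate 3, against 5.73 to 6.0. The causes were not tested.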

How the results depend on the processing

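None of the 27 gene results reversed in any of the 29 alternative settings. These results were picked as called or of smallest p, and some omissions touched neither diet compared. A reversal was therefore unlikely beforehand. On conventional soybean against casein 3 P450 genes were called; the count was 2 after centring and scaling, 2 without the trend, 0 without the 2 higher-floor arrays, 0 without number 1 of all diets, and 0 to 3 when each array was left out in turn. On the 1:1 high-isoflavone diet 2 were called, against 1 after centring and scaling, 1 without the trend, 0 without the 2 higher-floor arrays, 0 without number 1 of all diets, 3 with the mean of all probe sets, and 0 to 3 over single omissions. The single arrays whose omission moved the count by over 1.5 times were casein 1, 2, 3 and 5 and conventional soybean 1, 3, 4 and 5 in the first comparison, and casein 1, 4 and 5 and replicates 2 and 4 of the 1:1 diet in the second. The other 3 comparisons gave 0 in every setting, where at most 0.125% of all probe sets were called. Calls over all probe sets moved too. On conventional soybean they were 1.64% as deposited, 2.27% after centring and scaling, 1.19% without the trend and 0.412% without the 2 higher-floor arrays. Without number 1 of all diets they were 1.22%, and over single omissions 0.433% to 1.8%. On the 1:1 diet these shares were 2.21%, 2.35%, 1.84%, 1.13%, 1.37% and 1.07% to 2.58%. The mean of all probe sets gave 2.06% there. Replicate numbers were not treated as pairing the rats in the main fit. Correlations over 0.1 were found in 9 of 25 same-numbered pairs, 5 of them the number 1 rats, which correlated in all 5 comparisons (0.205 to 0.401). The best match of a rat in the other diet had its own number for 5 of 10 rats in conventional soybean against casein. This held for 4 of 10 on each high-isoflavone diet against casein, 3 of 10 between the cultivars and 2 of 10 between the shares. These counts do not settle whether the numbers pair the rats. With the replicate block 4 P450 genes passed on conventional soybean, adding Cyp3a2 (adjusted p = 0.0359), 3 on the 1:1 diet, adding Cyp2j4 (0.0375), and 0 elsewhere. Of all probe sets the block called 2.13% on conventional soybean, 2.38% on the 1:1 diet and at most 0.083% elsewhere. Over all probe sets, conventional soybean gave 281 higher and 172 lower calls as deposited, 194 and 354 after quantile normalization and 158 and 472 after centring and scaling; the 1:1 diet gave 317 and 296, 235 and 374, and 180 and 471. With 5 arrays per diet, small differences of genes with a wide spread between rats were not detectable.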
